A study of Mus musculus with 16 samples.

Results

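Embryoid bodies (EBs) after 4 days of retinoic acid (RA) were compared with EBs at the moment RA was added, over the endogenous genes of all 16 libraries of the series. EBs are floating aggregates in which mouse embryonic stem (ES) cells start to differentiate. They were grown from the ES line R1 for 4 days without Lif, the cytokine that holds ES cells undifferentiated. Day 0 stands for these EBs before RA (0 µM), and day 4 for EBs kept for 4 further days with 2 µM RA. The series holds no EBs grown to day 4 without RA, so RA and the further days of culture cannot be told apart in any difference below.

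The procedure was run in 2 biological replicates, which gave 2 RNA samples per day. Each of the 4 RNA samples was split into 4 vials that differed in the mix of synthetic mouse spike-ins added (mixes 1, 2 and 3, or none of these, here mix 4). Each vial also received spike-ins of the External RNA Control Consortium (ERCC). Vials of mixes 1 and 3 had ERCC mix 1, and vials of mixes 2 and 4 had ERCC mix 2. The 16 libraries are thus 4 technical splits of each RNA. Libraries were stranded, depleted of ribosomal RNA and sequenced from both ends. Values are FPKM, sequenced fragments scaled by transcript length and library size, as estimated by RSEM and multiplied by a TMM factor per library. They were summed over the RefSeq transcripts of a gene. Spike-in transcripts and 30 mouse genes from which spike-ins were made were left out, and 20459 of 24125 remaining genes, those above 0 in at least 1 library, were tested. The number of fragments behind a value is unknown, so no counting error is given. A level below is the mean of 4 vials. A difference is day 4 minus day 0 on the log2(FPKM + 0.1) scale with its standard error (SE). Unless stated, n is 2 RNA samples per day.

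RA is made from vitamin A by retinaldehyde dehydrogenases, carried by cellular binding proteins and broken down by enzymes of the Cyp26 family. It enters the nucleus and binds receptors of the Rar family, which sit on DNA together with Rxr partners, often at direct repeats of a short recognition sequence in the promoters of target genes. In embryos RA sets anterior to posterior identity by switching on Hox genes, and in ES cell cultures it drives cells out of pluripotency into lineages that depend on dose and timing, neural ones among them.

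A feature of the libraries touches every result below. Within 3 of the 4 RNA samples, the 18 pairs of vials correlated with r from 0.988 to 0.997 across 11570 genes with a mean of at least 1 FPKM (a description across genes, which are not independent). In day 0 replicate 2, the vials of mixes 1 and 2 correlated with r = 0.988 and those of mixes 3 and 4 with r = 0.994, but the vial of mix 1 with that of mix 3 with only r = 0.832. The vials of mixes 3 and 4 were lower for GC-rich transcripts. Transcripts were put into 5 classes of GC content. In the class with the highest GC content, from 55.5% to 72.3%, the median difference from the sister vials was -2.05 on the log2 scale, and in the class with the lowest, from 29.8% to 44.1%, it was 0.72. The same slope separated the days. Day 4 minus day 0 had a median of -1.20 in the GC-richest class and 0.55 in the GC-poorest, and against the vials of mixes 3 and 4 of day 0 replicate 2 alone these medians were 0.71 and -0.04. GC content thus moved with the day, and its part in a single gene's difference was not tested. Counts are therefore also given with FPKM corrected for GC content, without those 2 vials, and against them as the only day 0 libraries, a comparison added after the data were seen. In this last comparison day 0 is 1 RNA sample, so a call lost under it need not mean a smaller difference.

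In limma, 3056 of the 20459 genes (14.9%) were higher at day 4 and 2049 (10.0%) were lower, at a Benjamini-Hochberg adjusted p of at most 0.05, and the median difference over all genes was -0.02. In bulk RNA more cells of a type and more RNA per cell cannot be told apart. Of the higher genes 954 differed at least 4-fold and 213 at least 16-fold, and of the lower genes 704 and 107. In all, 101 genes were at or below 0.1 FPKM in the 8 libraries of day 0 and at or above 1 FPKM in the 8 of day 4, against 21 genes with the reverse pattern. From the gene lists below, Dcn, Dcx, Hoxa3, Hoxb13 and Tbx5 belong to the former and Dnmt3l, Fgf4, Fgf8, Mesp1 and T to the latter. Protein-coding genes were higher in 15.1% and lower in 10.4% of 18476 cases, and long noncoding RNAs in 15.9% and 6.60% of 1394.

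The number of genes called depended on the libraries used. With the replicate number as a block, which pairs the days of 1 repeat of the procedure, 3778 genes (18.5%) were higher and 3899 (19.1%) lower. Without the vials of mixes 3 and 4 of day 0 replicate 2 the counts were 5524 (27.0%) and 6865 (33.6%), with the GC correction 5590 (27.3%) and 4755 (23.2%), and against those 2 vials alone 2589 (12.7%) and 1669 (8.16%). Against the 2 vials 3055 of the 3056 higher genes and 2026 of the 2049 lower genes had the same sign. The counts of a list under a setting are to be read against the shares of all genes under that setting. When either replicate of day 4 was left out, limma called 0 genes at the adjusted threshold, while 4586 and 4402 genes had an unadjusted p of at most 0.05.

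**Figure D1:**
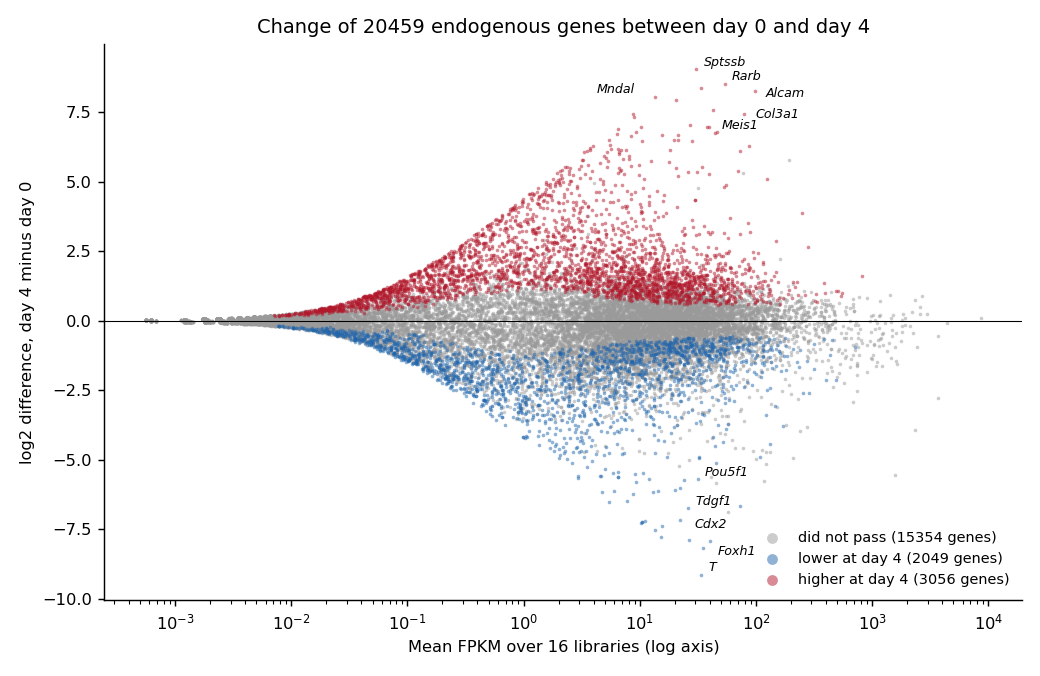
Difference between day 4 and day 0 of each tested gene (vertical axis, log2 scale) against its mean FPKM over the 16 libraries (horizontal log axis). Red points are the 3056 genes higher and blue points the 2049 genes lower at day 4 (limma, adjusted p of at most 0.05), and grey points did not pass; Sptssb and T lie at the ends.

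The markers chosen for the comparison separated the days in every library. The same holds for each gene below that passed the test and is given with its levels, Pax6 excepted. Such separation came with nearly every call. Among genes with a mean of at least 1 FPKM, 1858 higher and 1207 lower genes passed the test over all genes. Of these, 3054 had no overlap between the libraries of the days. Vials of an RNA sample are technical splits, so the separation adds no replicates and is no further evidence beside the test. Rarb, the RA receptor beta (chromosome 14, 16430839 to 17082331 of GRCm38.p6), was at 0.190 and 0.200 FPKM on day 0 and 106 and 107 FPKM on day 4, a difference of 8.51 ± 0.17 (adjusted p = 0.00685). Hoxa5, a Hox gene of the neck and upper trunk (chromosome 6, 52201754 to 52204587), was at 0.400 and 0.316 FPKM on day 0 and 85.2 and 85.7 FPKM on day 4 and rose by 7.56 ± 0.19. Meis1, a homeodomain partner of Hox proteins (chromosome 11, 18880428 to 19019651), was at 0.728 and 0.702 FPKM on day 0 and 87.3 and 87.9 FPKM on day 4 and rose by 6.75 ± 0.15. The 8 libraries of a day agreed closely for these genes. For Rarb they ran from 0.116 to 0.226 FPKM at day 0 and from 103.6 to 113 FPKM at day 4.

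Both pluripotency markers moved the other way. Tdgf1, the Nodal co-receptor Cripto (chromosome 9, 110939608 to 110946158), was at 45.7 and 57.01 FPKM on day 0 and 0.413 and 0.363 FPKM on day 4 (difference -6.74 ± 0.22, adjusted p = 0.00685). Pou5f1, which encodes the pluripotency factor Oct4 (chromosome 17, 35506032 to 35510777), was at 87.3 and 37.2 FPKM on day 0 and 1.03 and 0.693 FPKM on day 4 (difference -5.70 ± 0.68, adjusted p = 0.0169). Pou5f1 shows the vial effect. Its vials of day 0 replicate 2 gave 69.7, 56.2, 10.4 and 12.6 FPKM for mixes 1 to 4, although they hold the same RNA, whereas those of Tdgf1 gave 55.3, 56.2, 58.6 and 58.0 FPKM. Against the 10.4 and 12.6 FPKM of the 2 divergent vials the difference of Pou5f1 was -3.64, and with the GC correction -4.79.

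**Figure D2:**
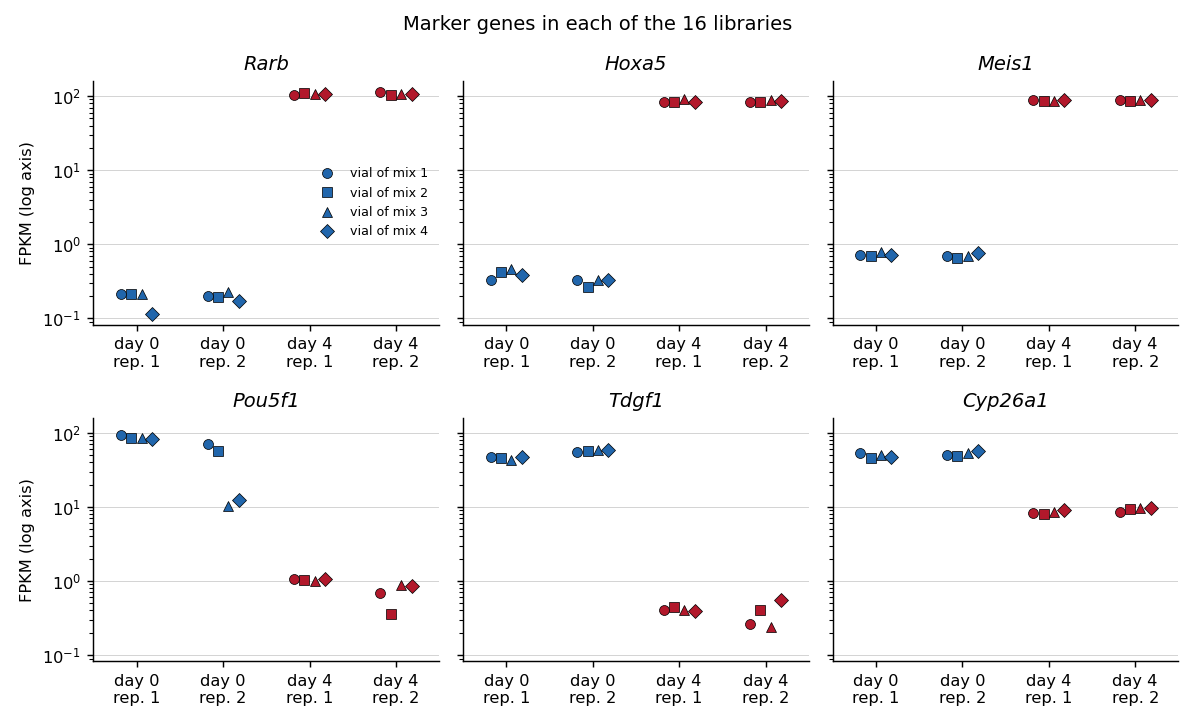
FPKM (log axis) of the 5 markers and Cyp26a1 in each of the 16 libraries, grouped by RNA sample, with day 0 in blue, day 4 in red and a symbol for each vial. The libraries of the days do not overlap for any of the 6 genes, and Pou5f1 shows the vials of mixes 3 and 4 of day 0 replicate 2 at 10.4 and 12.6 FPKM, below their sister vials.

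The list of retinoid receptors and metabolism had 24 members, among them the orphan receptors Nr2f1 and Nr2f2 and the germ cell gene Stra8. Of the 24, 12 were higher and 3 lower (against 14.9% and 10.0% of all genes). The median difference was 1.29 against -0.02 over all tested genes. The numbers higher and lower were 16 and 4 with the GC correction, 14 and 2 against the 2 vials, 13 and 4 with the block and 13 and 7 without the 2 vials. Among receptors and related nuclear receptors, Nr2f2 and Nr2f1, the orphan receptors COUP-TFII and COUP-TFI, rose together with Rarb. Nr2f2 was at 0.103 and 0.123 FPKM on day 0 and 62.2 and 72.5 FPKM on day 4 (difference 8.35 ± 0.21) and Nr2f1 at 0.0650 and 0.0765 FPKM on day 0 and 16.2 and 20.3 FPKM on day 4 (difference 6.78 ± 0.26). The Rar family did not move as 1 group. Rarg was at 17.3 and 7.72 FPKM on day 0 and 5.17 and 3.92 FPKM on day 4, which did not pass the test (difference -1.22 ± 0.56, adjusted p = 0.192, and 0.0482 with the replicate block), and its difference was -0.01 with the GC correction. Rxrg, an Rxr partner, fell from 1.15 and 0.782 FPKM to 0.161 and 0.164 FPKM (difference -1.89 ± 0.32). Its difference was -1.31 with the GC correction and -0.80 against the 2 vials. Nrip1, a corepressor that binds ligand-occupied receptors, was at 5.10 and 3.96 FPKM on day 0 and 10.8 and 10.1 FPKM on day 4 (difference 1.21 ± 0.21).

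Stra6, the membrane receptor for retinol-binding protein, was at 0.0545 and 0.0200 FPKM on day 0 and 1.16 and 0.961 FPKM on day 4 (difference 3.09 ± 0.24). Aldh1a2, the main RA-synthesising enzyme of the early embryo, was at 1.02 and 0.689 FPKM on day 0 and 12.1 and 11.7 FPKM on day 4 (difference 3.70 ± 0.27).

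The enzymes of RA turnover split. Dhrs3, which reduces retinaldehyde back to retinol, was at 1.003 and 0.573 FPKM on day 0 and 101 and 81.4 FPKM on day 4 (difference 6.77 ± 0.35). Cyp26b1, an RA-degrading hydroxylase, was at 0.430 and 0.215 FPKM on day 0 and 19.3 and 19.7 FPKM on day 4 (difference 5.59 ± 0.35). Its relative Cyp26a1, often used as a reporter of RA exposure, was at 48.9 and 52.4 FPKM on day 0 and 8.43 and 9.34 FPKM on day 4. Cyp26a1 was thus already high before RA was added and fell (difference -2.50 ± 0.14, adjusted p = 0.00698), with no overlap between the 8 libraries of each day. The difference of Cyp26a1 was -2.63 against the 2 divergent vials and -1.92 with the GC correction, and the part of GC content in it was not tested. Aldh1a3, a relative of Aldh1a2, fell from 1.63 and 0.946 FPKM to 0.122 and 0.0737 FPKM (difference -2.78 ± 0.36). Crabp2, which carries RA to the nucleus, was at 12.3 and 8.09 FPKM on day 0 and 19.01 and 16.9 FPKM on day 4 (difference 0.86 ± 0.28, adjusted p = 0.111, and 0.0453 with the block). Stra8, a germ cell gene named for its response to RA, was at 1.99 and 1.31 FPKM at day 4 and listed at 0 in all 8 libraries of day 0 (adjusted p = 0.00760).

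Rarb and Cyp26a1, which moved in opposite directions, both carry a direct repeat of the RA receptor recognition sequence close to a transcript start, and their sequences are shown for that reason. The promoter windows of RefSeq (GRCm38.p6, 250 bases before to 50 bases after the start) were searched on both strands for 2 hexamers in the same orientation, each being AGGTCA or one of its variants, which were AGTTCA on one hand and GGGTCA on the other, together with the form GGTTCA, with a spacer of 5 bases (DR5) or of 2 bases (DR2). Capitals mark the hexamers, read 5′ to 3′ on the gene's strand. The stretch of Rarb is chr14:16575443-16575599 on the minus strand, with the repeat from 53 to 37 bases before the start. This start lies inside the span of the gene given above and not at its outer end. That of Cyp26a1 is chr19:37697706-37697857 on the plus strand, with the repeat in reverse complement from 32 to 16 bases before the start. The start used for Cyp26a1, like the repeat, also lies inside the span of its gene (chromosome 19, 37697738 to 37701536).
Rarb: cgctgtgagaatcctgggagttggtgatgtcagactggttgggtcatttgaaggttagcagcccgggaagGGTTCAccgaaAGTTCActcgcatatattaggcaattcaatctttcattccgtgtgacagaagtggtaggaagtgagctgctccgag
Cyp26a1: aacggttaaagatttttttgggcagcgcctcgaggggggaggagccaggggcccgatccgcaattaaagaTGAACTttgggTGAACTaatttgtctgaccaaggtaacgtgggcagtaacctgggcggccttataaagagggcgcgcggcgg

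Among 15828 tested genes with a promoter window, 12 (0.0758%) held a DR5 and 15 (0.0948%) a DR2, and no gene held both. A DR5 was found in 4 of 2344 higher genes (0.171%) and in 1 of 1559 lower genes (0.0641%), and a DR2 in 1 gene of either group. Over all 32851 windows of this length 0.0974% held a DR5 and 0.268% a DR2. The other higher genes with a DR5 were Hbb-y, Tnfsf13b and Ppbp, named because they hold a match, after their values were seen. These counts are a description, and a window without these letters says nothing of RA receptors elsewhere at the gene.

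Hox genes are the textbook targets of RA, and 20 of the 39 were higher and 3 lower, with a median difference of 1.06. Higher and lower were 24 and 5 with the GC correction, 18 and 3 against the 2 vials, 21 and 4 with the block and 21 and 7 without the 2 vials. The rises lay mostly toward the anterior end of the clusters. Of 18 genes with paralogue numbers 1 to 6, a division made after the values were seen, 13 were higher and 1 lower (median difference 3.08), and of 21 genes with numbers 7 to 13, 7 were higher and 2 lower (median -0.34).

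In the Hox A cluster Hoxa4 stood out with Hoxa5, at 0.0712 and 0.0715 FPKM on day 0 and 41.6 and 40.7 FPKM on day 4 (difference 7.94 ± 0.21). Hoxa2, needed for hindbrain and branchial arch identity, was at 0.0673 and 0.0643 FPKM on day 0 and 20.8 and 20.02 FPKM on day 4 (difference 6.98 ± 0.23). Between these genes Hoxa3 reached only 2.53 and 2.60 FPKM at day 4, from 0.0452 and 0.0415 FPKM. In the C cluster Hoxc5 was at 0.594 and 0.422 FPKM on day 0 and 74.1 and 75.8 FPKM on day 4 (difference 6.97 ± 0.22) and Hoxc4 at 0.486 and 0.689 FPKM on day 0 and 32.7 and 37.5 FPKM on day 4 (difference 5.71 ± 0.24). In the B cluster Hoxb2 had the highest level, at 6.57 and 6.99 FPKM on day 0 and 37.8 and 42.5 FPKM on day 4 (difference 2.56 ± 0.15). FPKM are scaled by length but also moved with GC content, so an order of genes is only an order of their FPKM. By FPKM, Hoxa5 was the highest Hox gene at day 4 and Hoxc5 the next, their RNA samples not overlapping. Those of Hoxa4 and Hoxb2 lay within a few FPKM of each other.

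Some Hox genes did not follow. Hoxb1, an early RA target that marks the fourth hindbrain segment, was named after its values were seen and was at 0.358 and 0.435 FPKM on day 0 and 0.433 and 0.374 FPKM on day 4 (difference 0.02 ± 0.22, adjusted p = 0.962). Hoxd1 fell from 8.29 and 9.07 FPKM to 2.81 and 3.46 FPKM (difference -1.45 ± 0.21, adjusted p = 0.0232), but did not pass with the GC correction (adjusted p = 0.278). Hoxd13, the last gene of its cluster, was at 1.75 and 2.08 FPKM on day 0 and 0.490 and 0.528 FPKM on day 4 (difference -1.70 ± 0.25). Hoxb13, the last gene of the B cluster, rose although its neighbour did not pass. It was at 0.0457 and 0.0147 FPKM on day 0 and 3.71 and 3.63 FPKM on day 4 (difference 4.90 ± 0.25), whereas Hoxb9, the next tested gene of the cluster, was at 1.57 and 1.34 FPKM on day 0 and 1.13 and 0.894 FPKM on day 4 and did not pass (adjusted p = 0.259; named after its values were seen).

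**Figure D3:**
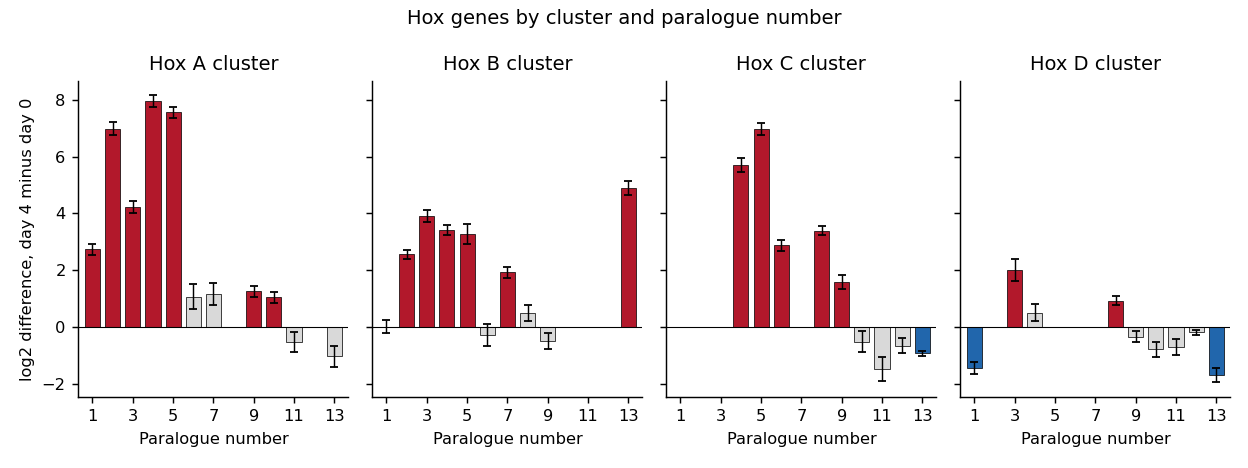
Difference between day 4 and day 0 (log2 scale, bars, with SE) of the 39 Hox genes by cluster and paralogue number; a number without a bar has no gene in that cluster. Red bars passed as higher, blue as lower and grey did not pass, and the bars of Hoxa4 and Hoxa5 are the tallest, while Hoxb13 stands alone at the end of its cluster.

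Some Hox cofactors, which bind DNA beside Hox proteins, rose too. Meis2 was at 1.31 and 1.42 FPKM on day 0 and 66.9 and 66.9 FPKM on day 4 (difference 5.54 ± 0.15). Of 9 cofactors 3 were higher and 0 lower. Pbx3 was at 10.2 and 12.3 FPKM on day 0 and 18.05 and 19.2 FPKM on day 4 and did not pass (adjusted p = 0.0566, and 0.0470 with the block). Of the 9, higher and lower were 8 and 0 with the GC correction, 5 and 0 against the 2 vials, 4 and 0 with the block and 6 and 0 without the 2 vials.

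Caudal and other posterior regulators, some of which act upstream of Hox genes, mostly fell. The hindbrain and posterior list had 1 higher and 7 lower members of 12 (median -1.27; higher and lower, 3 and 6 with the GC correction, 3 and 5 against the 2 vials, 2 and 7 with the block and 3 and 7 without the 2 vials). Cdx2, a caudal factor of the posterior embryo and the trophoblast, was at 57.6 and 31.3 FPKM on day 0 and 0.164 and 0.212 FPKM on day 4 (difference -7.18 ± 0.42), and its relatives Cdx1 and Cdx4 also fell. Evx1, a posterior streak gene next to the Hox A cluster, fell from 17.1 and 8.81 FPKM to 0.135 and 0.148 FPKM. Egr2, which encodes the hindbrain factor Krox20, fell from 0.455 and 0.304 to 0.0927 and 0.0790 FPKM (difference -1.35 ± 0.21).

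Pluripotency genes had the largest share of lower members of the 31 lists. Of 21 genes of general pluripotency and the epiblast, 18 were lower and 2 higher, with a median difference of -4.20. Higher and lower members were 2 and 19 with the GC correction, 1 and 18 against the 2 vials, 2 and 19 with the block and 2 and 19 without the 2 vials. Lin28a, an RNA-binding protein that blocks let-7 maturation, was at 147 and 139.6 FPKM on day 0 and 1.201 and 1.43 FPKM on day 4 (difference -6.67 ± 0.16). Sall4, a zinc-finger partner of Oct4, was at 48.8 and 45.6 FPKM on day 0 and 0.715 and 0.872 FPKM on day 4 (difference -5.73 ± 0.19). Trim71, a let-7 target, fell from 52.1 and 36.0 FPKM to 0.515 and 0.612 FPKM. Fgf15, the largest fall of the list, was at 33.2 and 29.1 FPKM on day 0 and 0.0790 and 0.107 FPKM on day 4 (difference -7.36 ± 0.24).

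The 2 members that rose are markers of the primed epiblast. Fgf5 was at 0.288 and 0.289 FPKM on day 0 and 0.943 and 1.197 FPKM on day 4 (difference 1.62 ± 0.25) and Pou3f1, a POU factor also used in neural progenitors, at 0.710 and 0.583 FPKM on day 0 and 4.69 and 4.79 FPKM on day 4 (difference 2.72 ± 0.25). Utf1, a chromatin-bound factor of pluripotent cells, did not pass (adjusted p = 0.0805, and 0.0236 with the block), at 1.198 and 0.294 FPKM on day 0 and 0.0143 and 0.0170 FPKM on day 4.

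Genes of naive pluripotency had a smaller summed level already at day 0, where it lay between 83.3 and 136 FPKM against 462 to 588 FPKM for the general list. Of 18 members 10 were lower and 0 higher at day 4 (median -1.97). Prdm14, a repressor that protects the naive state, was at 4.05 and 3.44 FPKM on day 0 and 0.0973 and 0.0683 FPKM on day 4 (difference -4.43 ± 0.27). Klf5 fell from 5.75 and 3.68 FPKM to 0.228 and 0.205 FPKM and Dppa5a from 48.0 and 31.6 FPKM to 6.76 and 3.57 FPKM. Dppa3, also called Stella, was at 6.67 and 5.55 FPKM on day 0 and 2.99 and 1.87 FPKM on day 4 and did not pass (adjusted p = 0.0603, and 0.0265 with the block). Higher and lower among the 18 were 1 and 12 with the GC correction, 0 and 5 against the 2 vials, 0 and 12 with the block and 1 and 12 without the 2 vials.

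Regulators of DNA methylation that mark the epiblast fell too. Dnmt3b, a de novo methyltransferase, was at 39.5 and 31.2 FPKM on day 0 and 2.02 and 2.01 FPKM on day 4 (difference -4.04 ± 0.20), and its cofactor Dnmt3l fell from 4.63 and 2.59 FPKM to 0.0293 and 0.0380 FPKM. Tet2, which oxidises methylcytosine, was at 1.32 and 1.34 FPKM on day 0 and 5.85 and 5.96 FPKM on day 4 (difference 2.08 ± 0.20). Dnmt3a, the other de novo methyltransferase, did not pass, at 16.2 and 10.7 FPKM on day 0 and 28.4 and 26.8 FPKM on day 4 (adjusted p = 0.0646, and 0.0274 with the block). Of the 12 genes of this list 1 was higher and 3 lower, and the counts were 3 and 6 with the GC correction, 2 and 3 against the 2 vials, 2 and 4 with the block and 3 and 7 without the 2 vials.

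At day 0 the EBs carried a primitive streak programme, the set of genes that embryos use at gastrulation, and it was lower at day 4. Of 19 streak and early mesoderm genes 11 were lower and 3 higher (median -3.30; higher and lower, 3 and 13 with the GC correction, 3 and 12 against the 2 vials, 3 and 14 with the block and 3 and 15 without the 2 vials). T, which encodes Brachyury (chromosome 17, 8434423 to 8442496), was at 72.7 and 61.3 FPKM on day 0 and 0.0238 and 0.0143 FPKM on day 4, the largest fall of all genes that fulfilled the naming rule (difference -9.14 ± 0.23, adjusted p = 0.00685). Mixl1 was at 35.2 and 43.5 FPKM on day 0 and 0.450 and 0.515 FPKM on day 4 (difference -6.08 ± 0.22) and Eomes at 13.9 and 16.8 FPKM on day 0 and 0.0670 and 0.0813 FPKM on day 4 (difference -6.48 ± 0.26). Both encode transcription factors of the streak, Mixl1 of the homeodomain and Eomes of the T-box family. Foxh1, the DNA-binding partner of Smads in Nodal signalling, is in none of the lists but among the largest falls, at 102 and 37.3 FPKM on day 0 and 0.0877 and 0.0405 FPKM on day 4 (difference -8.18 ± 0.87).

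The 3 members that rose are known from later paraxial mesoderm. Foxc2 was at 0.136 and 0.106 FPKM on day 0 and 13.75 and 16.3 FPKM on day 4 (difference 6.13 ± 0.25), Foxc1 at 0.829 and 1.10 FPKM on day 0 and 7.27 and 8.30 FPKM on day 4 and Meox1, a somite factor, at 0.200 and 0.129 FPKM on day 0 and 2.66 and 2.90 FPKM on day 4. Gsc, an organizer gene, had 1.69 and 0.469 FPKM at day 0 and was listed at 0 in all 8 libraries of day 4, without passing the test (adjusted p = 0.0706, and 0.0202 with the block).

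Of 13 trophoblast genes 8 were lower and 1 higher (median -2.64; higher and lower, 2 and 8 with the GC correction, 1 and 6 against the 2 vials, 1 and 9 with the block and 1 and 10 without the 2 vials). The list shares Cdx2, Eomes and Hand1 with embryonic programmes. Hand1, a factor of trophoblast and extraembryonic and heart mesoderm, was at 36.0 and 18.3 FPKM on day 0 and 0.0575 and 0.0238 FPKM on day 4 (difference -7.51 ± 0.47). The keratins Krt8 and Krt18, which form filaments of simple epithelia, were among the most abundant at day 0. Krt8 was at 469 and 179 FPKM on day 0 and 21.2 and 15.8 FPKM on day 4 (difference -3.77 ± 0.70), and the difference was -2.62 with the GC correction and -1.72 against the 2 vials. Elf5, a trophoblast stem cell factor, was the member that rose, from 0 and 0.00250 to 0.1003 and 0.172 FPKM.

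Mesenchyme genes made the list with the highest median difference (2.76), with 9 of 14 higher and 1 lower. Higher and lower were 9 and 3 with the GC correction, 9 and 0 against the 2 vials, 9 and 4 with the block and 9 and 4 without the 2 vials. Their summed level went from between 20.8 and 89.5 FPKM in the 8 libraries of day 0 to between 237 and 266 FPKM at day 4. Col6a1, Lum, Lox and Col1a2, also of the extracellular matrix, were among those that rose. Col3a1, a fibrillar collagen of loose connective tissue, was at 1.18 and 0.550 FPKM on day 0 and 162 and 152 FPKM on day 4 (difference 7.43 ± 0.39). Postn, the matrix protein periostin, was at 0.510 and 0.357 FPKM on day 0 and 38.5 and 33.7 FPKM on day 4 (difference 6.12 ± 0.25), and Dcn, the proteoglycan decorin, rose from 0.0465 and 0.0345 FPKM to 4.10 and 4.50 FPKM. Prrx1, a homeobox factor of limb and head mesenchyme, was at 0.408 and 0.468 FPKM on day 0 and 4.57 and 5.37 FPKM on day 4 (difference 3.25 ± 0.25).

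Not every matrix gene followed. Thy1, a surface marker of fibroblasts, fell from 1.56 and 0.900 FPKM to 0.180 and 0.145 FPKM. The collagen gene Col1a1 was at 19.99 and 5.98 FPKM on day 0 and 2.001 and 1.62 FPKM on day 4 and did not pass (difference -2.40 ± 0.76, adjusted p = 0.101, and 0.0246 with the block).

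The counts of the neural lists stand beside the 14.9% of all genes that were higher and the 10.0% that were lower. Of 26 neural progenitor genes 5 were higher and 5 lower (median -0.03), of 30 neuronal genes 5 were higher and 8 lower (median -0.30), and of 21 genes of motor neurons and the ventral spinal cord 2 were higher and 3 lower (median -0.05). For progenitors, higher and lower were 7 and 6 with the GC correction, 4 and 2 against the 2 vials, 7 and 5 with the block and 7 and 9 without the 2 vials. For neurons they were 7 and 12 with the GC correction, 3 and 5 against the 2 vials, 6 and 10 with the block and 8 and 13 without the 2 vials. For motor neurons and the ventral spinal cord they were 4 and 4 with the GC correction, 0 and 3 against the 2 vials, 4 and 5 with the block and 4 and 7 without the 2 vials, where all genes without the 2 vials had 27.0% and 33.6%. Of the members of these lists 15, 14 and 15 stayed below 1 FPKM in all 16 libraries. Sox1, the earliest marker of the neural plate, was at 0.117 and 0.108 FPKM on day 0 and 0.0380 and 0.0522 FPKM on day 4 (difference -0.55 ± 0.10), and Pax6, a factor of the dorsal neural tube and eye, at 0.135 and 0.125 FPKM on day 0 and 0.424 and 0.319 FPKM on day 4 (difference 1.10 ± 0.19). Both passed the test at these low levels, in opposite directions, but Sox1 did not with the GC correction (adjusted p = 0.677).

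Single neural genes did rise. Ncam1, a neural cell adhesion molecule also found in mesoderm, was at 2.91 and 2.69 FPKM on day 0 and 26.5 and 24.1 FPKM on day 4 (difference 3.13 ± 0.16). Dcx, the microtubule protein doublecortin of migrating neurons, was at 0.00800 and 0.0173 FPKM on day 0 and 2.13 and 2.503 FPKM on day 4 (difference 4.42 ± 0.22). Tubb3, the neuronal tubulin, went the other way, at 17.6 and 6.46 FPKM on day 0 and 0.874 and 0.648 FPKM on day 4 (difference -3.56 ± 0.66, but -2.40 with the GC correction and -1.995 against the 2 vials). So did the axonal adhesion molecule L1cam (2.36 and 1.60 FPKM on day 0 and 0.00700 and 0.00725 FPKM on day 4). The neural stem cell filament gene Nes was at 22.9 and 18.7 FPKM on day 0 and 18.3 and 20.4 FPKM on day 4 (adjusted p = 0.690, and 0.170 with the GC correction) and Cdh2, encoding N-cadherin, at 48.0 and 50.1 FPKM on day 0 and 47.8 and 49.98 FPKM on day 4 (adjusted p = 0.987), and neither passed the test.

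Forebrain and midbrain regulators were at low levels, 14 of 17 staying below 1 FPKM in every library. Of the 16 tested 4 were higher and 3 lower (4 and 2 with the GC correction, 3 and 2 against the 2 vials, 4 and 2 with the block and 5 and 3 without the 2 vials), beside 14.9% and 10.0% of all genes. Lhx2, a LIM factor of forebrain, eye and limb, was at 0.158 and 0.126 FPKM on day 0 and 21.2 and 20.3 FPKM on day 4 (difference 6.44 ± 0.23). Emx2, of cortex and urogenital tract, was at 0.114 and 0.125 FPKM on day 0 and 4.48 and 5.59 FPKM on day 4 (difference 4.58 ± 0.26). Otx2, needed for the anterior brain, fell from 0.983 and 1.33 FPKM to 0.00950 and 0 FPKM.

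The neural crest list had 4 higher and 5 lower members of 15 (5 and 7 with the GC correction, 3 and 4 against the 2 vials, 5 and 7 with the block and 5 and 8 without the 2 vials). These counts and those of the glial list below stand beside 14.9% higher and 10.0% lower among all genes, and 27.3% and 23.2% with the GC correction. Twist1, a factor of crest and mesoderm, was at 9.25 and 11.2 FPKM on day 0 and 42.2 and 43.9 FPKM on day 4 (difference 2.09 ± 0.15) and Snai2 at 1.62 and 2.16 FPKM on day 0 and 6.98 and 7.43 FPKM on day 4 (difference 1.90 ± 0.23). Msx1 and Msx2, targets of BMP signalling, fell, Msx1 from 39.1 and 23.3 FPKM to 1.42 and 1.33 FPKM and Msx2 from 39.3 and 38.2 FPKM to 2.501 and 3.08 FPKM. The glial list had 3 higher and 2 lower of 11 (3 and 1 with the GC correction, 2 and 1 against the 2 vials, 3 and 4 with the block and 3 and 6 without the 2 vials), led by the glutamate transporter gene Slc1a2 (0.214 and 0.133 FPKM on day 0 and 1.46 and 1.43 FPKM on day 4), and Mog, of myelin, was listed at 0 in all 16 libraries.

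Markers of endoderm were mixed, with 4 higher and 3 lower of 13 (5 and 4 with the GC correction, 3 and 3 against the 2 vials, 5 and 3 with the block and 5 and 4 without the 2 vials). These counts and those of extraembryonic endoderm below stand beside 14.9% higher and 10.0% lower among all genes, and 27.3% and 23.2% with the GC correction. Gata6, a factor of endoderm and heart, was at 6.25 and 6.47 FPKM on day 0 and 53.2 and 55.7 FPKM on day 4 (difference 3.08 ± 0.13) and Gata4 at 7.74 and 5.46 FPKM on day 0 and 20.01 and 17.3 FPKM on day 4 (difference 1.55 ± 0.27). Trh, a hormone precursor, fell from 31.0 and 16.5 FPKM to 0.386 and 0.262 FPKM, and Cxcr4, a chemokine receptor of definitive endoderm, from 20.3 and 15.4 FPKM to 4.57 and 4.65 FPKM. Of 20 extraembryonic endoderm genes 5 were higher and 0 lower, but the counts were 9 and 8 with the GC correction, 5 and 0 against the 2 vials, 6 and 7 with the block and 9 and 9 without the 2 vials. Afp, the alpha-fetoprotein of yolk sac and liver, was at 0.00850 and 0.0318 FPKM on day 0 and 1.13 and 0.418 FPKM on day 4 (difference 2.73 ± 0.50). Pdgfra, also a mesenchymal receptor, was at 6.31 and 7.07 FPKM on day 0 and 38.2 and 36.2 FPKM on day 4 (difference 2.46 ± 0.15), and Apoe at 159.9 and 56.9 FPKM on day 0 and 8.33 and 6.26 FPKM on day 4 (adjusted p = 0.0580, and 0.0111 with the block).

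Of 20 blood and endothelial genes 2 were higher and 7 lower (6 and 8 with the GC correction, 3 and 4 against the 2 vials, 3 and 8 with the block and 4 and 9 without the 2 vials). Those that fell include factors of early blood and vessel progenitors. Etv2 was at 17.4 and 6.49 FPKM on day 0 and 0.0213 and 0.0170 FPKM on day 4 (difference -6.13 ± 0.84), Tal1 at 21.6 and 19.4 FPKM on day 0 and 2.09 and 2.03 FPKM on day 4 (difference -3.25 ± 0.17) and Lmo2 at 56.6 and 61.5 FPKM on day 0 and 7.68 and 7.88 FPKM on day 4 (difference -2.91 ± 0.13). The 2 members that rose are embryonic globins of primitive red cells. Hbb-y was at 2.42 and 1.43 FPKM on day 0 and 93.5 and 58.7 FPKM on day 4 (difference 5.29 ± 0.41) and Hba-x at 0.244 and 0.191 FPKM on day 0 and 12.1 and 6.71 FPKM on day 4 (difference 4.93 ± 0.39), both higher in replicate 1 than in replicate 2 at day 4. Hbb-bh1, another embryonic globin, was at 40.7 and 26.7 FPKM on day 0 and 76.9 and 62.5 FPKM on day 4 (adjusted p = 0.0722, and 0.0178 with the block). Muscle genes had 1 higher and 1 lower of 17, below the 14.9% and 10.0% of all genes, but 4 and 5 with the GC correction, 4 and 3 against the 2 vials, 1 and 5 with the block and 2 and 7 without the 2 vials. The higher one was Tbx5, a factor of heart and forelimb, at 0.0295 and 0.0220 FPKM on day 0 and 1.62 and 1.48 FPKM on day 4 (difference 3.71 ± 0.20).

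**Figure D4:**
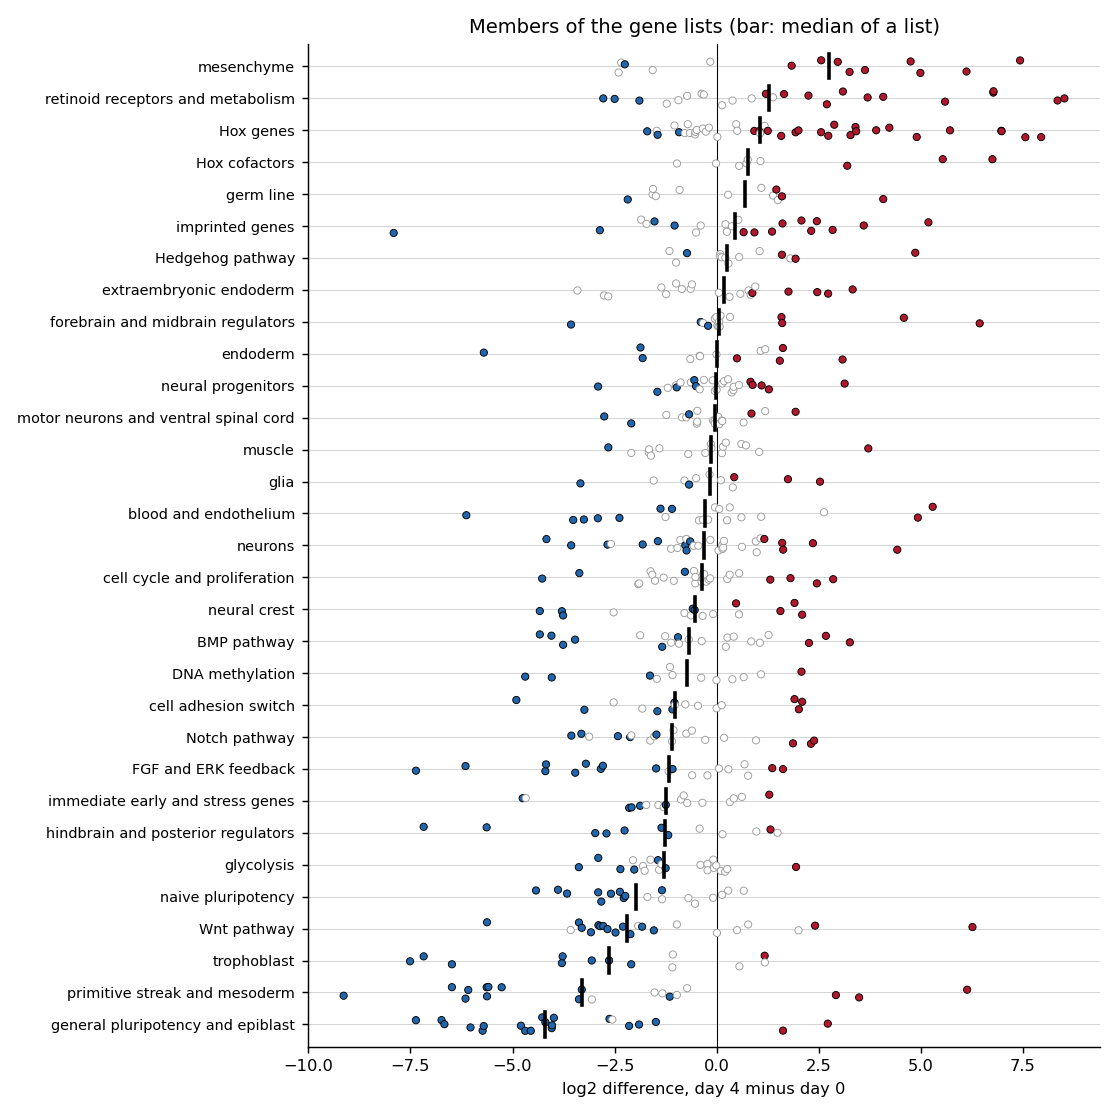
Difference between day 4 and day 0 (horizontal axis, log2 scale) of each member of the 31 gene lists, sorted by their median (black bar). Red points passed as higher, blue as lower and open points did not pass; general pluripotency and epiblast lies at the low end and mesenchyme at the high end, and the neural lists lie near 0.

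In the Wnt pathway 13 of 22 genes were lower and 2 higher (median -2.20; higher and lower, 5 and 14 with the GC correction, 3 and 12 against the 2 vials, 3 and 15 with the block and 4 and 16 without the 2 vials). The ligand gene Wnt3, which starts the streak, was at 16.7 and 8.86 FPKM on day 0 and 0.159 and 0.133 FPKM on day 4 (difference -5.62 ± 0.43), and the feedback gene Axin2 fell from 31.8 and 15.2 FPKM to 3.08 and 2.54 FPKM. Sfrp1, a secreted Wnt antagonist, was at 2.07 and 2.19 FPKM on day 0 and 173 and 168 FPKM on day 4 (difference 6.26 ± 0.13). Sfrp1 alone made up most of the summed level of the list at day 4, which was 216 to 236 FPKM against 149 to 218 FPKM at day 0.

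Genes of FGF signalling and of its ERK feedback rose in 2 and fell in 10 of 19 cases (5 and 12 with the GC correction, 2 and 9 against the 2 vials, 2 and 12 with the block and 5 and 12 without the 2 vials). Fgf8, a streak and organizer ligand, was at 14.1 and 4.77 FPKM on day 0 and 0.00700 and 0 FPKM on day 4 (difference -6.15 ± 0.73), and Fgf4 at 1.98 and 1.92 FPKM on day 0 and 0.0120 and 0.0120 FPKM on day 4 (difference -4.20 ± 0.19). Fgf3, outside this list but among the 12 largest falls, was at 43.2 and 17.5 FPKM on day 0 and 0.00475 and 0.0215 FPKM on day 4. The feedback genes Dusp4 and Spry4, which damp ERK, fell from 89.2 and 72.9 FPKM to 4.15 and 4.59 FPKM and from 6.67 and 5.14 FPKM to 0.532 and 0.562 FPKM.

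BMP genes rose in 3 and fell in 6 of 21 cases (7 and 6 with the GC correction, 4 and 6 against the 2 vials, 5 and 8 with the block and 7 and 11 without the 2 vials). These counts and those of the Notch list below stand beside the 14.9% of all genes that were higher and the 10.0% that were lower. With the GC correction all genes had 27.3% and 23.2%. The ligand gene Bmp4 was at 57.2 and 27.1 FPKM on day 0 and 3.67 and 2.96 FPKM on day 4 (difference -3.47 ± 0.50), and Bmp2 at 10.96 and 11.7 FPKM on day 0 and 0.548 and 0.631 FPKM on day 4 (difference -4.05 ± 0.22). Bmpr1b, a receptor gene, was at 0.279 and 0.436 FPKM on day 0 and 2.51 and 3.02 FPKM on day 4 and Id2, a target gene, at 32.8 and 33.3 FPKM on day 0 and 145 and 171 FPKM on day 4 (difference 2.26 ± 0.15). In the Notch list 3 of 19 were higher and 5 lower, but 5 and 8 with the GC correction, 4 and 4 against the 2 vials, 3 and 11 with the block and 3 and 13 without the 2 vials. The target gene Hey1 was at 9.50 and 10.2 FPKM on day 0 and 49.4 and 54.1 FPKM on day 4 (difference 2.39 ± 0.14), whereas the receptor gene Notch1 fell from 5.92 and 2.25 FPKM to 0.256 and 0.234 FPKM.

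Of 14 Hedgehog genes 3 were higher and 1 lower (8 and 0 with the GC correction, 5 and 0 against the 2 vials, 4 and 1 with the block and 5 and 3 without the 2 vials). Beside this, 14.9% of all genes were higher and 10.0% lower, and 27.3% and 23.2% with the GC correction. Gas1, a co-receptor of Hedgehog, was at 2.97 and 4.42 FPKM on day 0 and 104 and 110.1 FPKM on day 4 (difference 4.86 ± 0.24). Shh, the ligand gene, was at 0.308 and 0.209 FPKM on day 0 and 0.940 and 1.59 FPKM on day 4 (difference 1.93 ± 0.38). Gli3, a transcription factor of the pathway, was at 6.45 and 6.51 FPKM on day 0 and 6.97 and 7.15 FPKM on day 4 and did not pass (adjusted p = 0.577).

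Genes that mark epithelial and mesenchymal states also changed. Cdh1, encoding E-cadherin, was at 24.5 and 18.2 FPKM on day 0 and 1.89 and 2.44 FPKM on day 4 (difference -3.24 ± 0.26). Zeb1, a repressor of Cdh1, was at 3.98 and 3.73 FPKM on day 0 and 15.98 and 15.7 FPKM on day 4 (difference 2.01 ± 0.16). Its relative Zeb2 fell instead, from 9.09 and 11.9 FPKM to 4.84 and 5.11 FPKM (difference -1.03 ± 0.21). Vim and Fn1, often taken as mesenchymal markers, fell. Vim, encoding vimentin, was at 487 and 327 FPKM on day 0 and 141 and 149.6 FPKM on day 4 (difference -1.45 ± 0.25) and Fn1, encoding fibronectin, at 256 and 164 FPKM on day 0 and 6.88 and 6.08 FPKM on day 4 (difference -4.91 ± 0.32). In all, 3 genes of the 15 were higher and 5 lower (4 and 6 with the GC correction, 4 and 4 against the 2 vials, 3 and 7 with the block and 3 and 9 without the 2 vials).

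Of 27 cell cycle genes 4 were higher and 3 lower, shares like the 14.9% and 10.0% of all genes. The 4 (Cdkn1b, Cdkn1c, Cdkn2b and Cdkn2c) encode inhibitors of cyclin-dependent kinases. Cdkn1c, an imprinted inhibitor, was at 31.6 and 27.3 FPKM on day 0 and 153 and 168 FPKM on day 4 (difference 2.45 ± 0.15) and Cdkn1b, encoding p27, at 12.9 and 14.8 FPKM on day 0 and 30.7 and 37.9 FPKM on day 4 (difference 1.31 ± 0.18). Myc was at 36.5 and 18.3 FPKM on day 0 and 1.33 and 1.09 FPKM on day 4 (difference -4.27 ± 0.45) and Ccnd1, encoding cyclin D1, at 76.4 and 49.5 FPKM on day 0 and 6.05 and 5.62 FPKM on day 4 (difference -3.36 ± 0.28). Pcna, of the replication fork, was at 426 and 519.9 FPKM on day 0 and 341 and 395 FPKM on day 4 (adjusted p = 0.246) and Top2a at 302 and 416 FPKM on day 0 and 262 and 299 FPKM on day 4 (adjusted p = 0.330). This list depends on the processing, with 6 and 15 with the GC correction, 4 and 3 against the 2 vials, 4 and 9 with the block and 5 and 14 without the 2 vials, where all genes with the GC correction had 27.3% and 23.2%.

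Glycolysis genes were higher in 1 and lower in 6 of 22 cases (6 and 8 with the GC correction, 1 and 4 against the 2 vials, 1 and 11 with the block and 1 and 14 without the 2 vials). Slc2a3, a glucose transporter gene, was at 254 and 188 FPKM on day 0 and 21.2 and 20.2 FPKM on day 4 (difference -3.38 ± 0.21) and Slc2a1 at 162 and 69.1 FPKM on day 0 and 14.2 and 11.96 FPKM on day 4 (difference -2.90 ± 0.56). Pdk1, a kinase that keeps pyruvate out of mitochondria, rose, at 9.70 and 10.9 FPKM on day 0 and 40.6 and 38.9 FPKM on day 4 (difference 1.94 ± 0.14). The direction of the whole list was not stable. Its median was -1.30, but -0.31 with the GC correction and 0.73 against the 2 vials. Gapdh, its most abundant gene, was at 1657 and 706 FPKM on day 0 and 365 and 234 FPKM on day 4 (adjusted p = 0.180, and 0.0259 with the block).

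Imprinted genes, expressed from 1 parental copy, were higher in 10 and lower in 4 of 22 cases (11 and 8 with the GC correction, 11 and 4 against the 2 vials, 9 and 6 with the block and 13 and 8 without the 2 vials), and H19 of the list was not analysed here. These counts and those of the germ line and stress lists below stand beside 14.9% higher and 10.0% lower among all genes, and 27.3% and 23.2% with the GC correction. Plagl1, a zinc-finger regulator of imprinted growth genes, was at 1.06 and 1.08 FPKM on day 0 and 38.9 and 44.2 FPKM on day 4 (difference 5.18 ± 0.17), and Dlk1, of the Dlk1 and Meg3 domain, rose from 2.23 and 1.08 FPKM to 12.3 and 10.6 FPKM. Phlda2, which limits placental growth and lies in the same imprinted domain as Cdkn1c, was at 123 and 36.3 FPKM on day 0 and 0.191 and 0.112 FPKM on day 4 (difference -7.91 ± 0.87). Cdkn1c and Phlda2 thus moved in opposite directions. Germ line genes rose in 3 and fell in 1 of 12 cases (6 and 3 with the GC correction, 2 and 1 against the 2 vials, 5 and 3 with the block and 7 and 5 without the 2 vials). Besides Stra8 these were Meioc, of meiosis (2.37 and 4.02 FPKM on day 0 and 8.25 and 10.3 FPKM on day 4), and Dazl (0.0920 and 0.229 FPKM on day 0 and 0.590 and 0.556 FPKM on day 4), while Prdm1, the regulator of primordial germ cells, fell from 5.16 and 5.16 FPKM to 1.07 and 1.05 FPKM. Of 17 immediate early and stress genes 1 was higher and 5 lower, but 4 and 7 with the GC correction, 2 and 5 against the 2 vials, 1 and 10 with the block and 2 and 12 without the 2 vials. The early response gene Fos was at 4.20 and 3.30 FPKM on day 0 and 0.945 and 0.945 FPKM on day 4 (difference -1.88 ± 0.25).

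Over all lists, 546 genes were tested, of which 116 were higher and 143 lower. All of these kept their sign with the GC correction, without the 2 vials and against those vials alone, and 115 and 128 also passed with the GC correction. Over all genes, 3055 of the 3056 higher and 2026 of the 2049 lower genes kept their sign against those vials. These settings reuse the libraries that gave the calls, so they are no independent check of the lists. Against the 2 vials day 0 rests on 1 RNA sample, so calls of single genes are not given for that setting. Differences against these vials were smaller than with all vials for Afp, Dazl, Dppa5a, Egr2, Fgf5, Krt8, Meioc, Pax6, Rxrg, Shh, Thy1 and Tubb3, among others. They were larger for Elf5, Hoxd1 and Sox1, among others. With the GC correction Apoe, Col1a1, Crabp2, Dnmt3a, Dppa3, Gsc, Pbx3, Pcna, Top2a and Utf1, which had not passed, did so in the direction of the levels given. The lists were not a sample of all genes, so these shares describe them only.

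Outside the lists, the rule of the largest differences among genes with a mean of at least 1 FPKM named genes of several kinds. Of 11570 such genes 3054 (26.4%) passed the test and had no overlap between the libraries of the days. Sptssb, a small subunit of the enzyme that starts sphingolipid synthesis (chromosome 3, 69819538 to 69861363), had the largest rise, at 0.00550 and 0.0343 FPKM on day 0 and 60.4 and 62.0 FPKM on day 4 (difference 9.04 ± 0.24). Alcam, an adhesion molecule of the immunoglobulin family, was at 0.491 and 0.608 FPKM on day 0 and 184 and 207 FPKM on day 4 (difference 8.25 ± 0.18). Mndal, of the interferon-inducible p200 family, was listed at 0 and 0.00500 FPKM on day 0 and 26.1 and 27.5 FPKM on day 4, and a transcript without a symbol, NM_008328, at 0.00850 and 0.0173 FPKM on day 0 and 17.9 and 17.9 FPKM on day 4. Nxph2, a secreted ligand of neurexins, was at 0.00275 and 0 FPKM on day 0 and 16.9 and 18.1 FPKM on day 4, and Tmem255a at 0.279 and 0.345 FPKM on day 0 and 49.2 and 57.3 FPKM on day 4.

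Among the largest falls, Psmb8, a subunit of the immunoproteasome, was at 72.3 and 34.2 FPKM on day 0 and 0.0780 and 0.130 FPKM on day 4 (difference -7.88 ± 0.56). Alox15, a lipoxygenase, was at 25.9 and 17.97 FPKM on day 0 and 0.0565 and 0.0385 FPKM on day 4 (difference -7.19 ± 0.32), and Vrtn, encoding vertnin, at 27.0 and 13.72 FPKM on day 0 and 0.0260 and 0.00250 FPKM on day 4 (difference -7.26 ± 0.54). Sprr2a1 and Sprr2a2, small proline-rich proteins of cornified epithelia, had the same values to the digits given, 25.7 and 16.1 FPKM on day 0 and 0.0310 and 0.0333 FPKM on day 4, and are near-identical copies between which reads cannot be assigned.

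Sums over a gene hide changes between its transcripts. On the transcript level 2447 of 28164 transcripts (8.69%) were higher and 1461 (5.19%) lower, and 13 genes of 4402 with at least 2 tested transcripts had transcripts called in opposite directions. The number was 33 with the replicate block and 431 without the 2 vials, and 0 when day 0 replicate 1 or either replicate of day 4 was left out. RSEM divides reads among overlapping transcripts by estimation, so these values are less certain than the sums.

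Rps24, which encodes a protein of the small ribosomal subunit (chromosome 14, 24490678 to 24496960), headed the 13. The transcript NM_207634 was at 595 and 578 FPKM on day 0 and 52.3 and 46.2 FPKM on day 4 (difference -3.57 ± 0.15, adjusted p = 0.0216), while NM_207635 was at 31.99 and 39.5 FPKM on day 0 and 123 and 124 FPKM on day 4 (difference 1.82 ± 0.16). The third transcript, NM_011297, was the most abundant, at 1121 and 1229 FPKM on day 0 and 1649 and 1631 FPKM on day 4, and did not pass (adjusted p = 0.179). The sum over the gene did not differ (difference 0.01, adjusted p = 0.962). Without the 2 vials both transcripts kept their call and NM_011297 passed as higher. Against those vials alone, where day 0 is 1 RNA sample, the differences were -3.35 for NM_207634 and 1.35 for NM_207635.

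Mia2, encoding a protein of the endoplasmic reticulum exit sites (chromosome 12, 59095582 to 59190220), had a lower NM_001165253, at 10.7 and 12.2 FPKM on day 0 and 1.17 and 0.971 FPKM on day 4, and a higher NM_001165254, at 0 and 0.423 FPKM on day 0 and 12.5 and 13.2 FPKM on day 4. Its other tested transcript, NM_146034, was at 13.2 and 17.9 FPKM on day 0 and 13.6 and 15.7 FPKM on day 4 and did not pass. In Dlc1, a GTPase-activating protein, NM_015802 fell from 17.9 and 13.4 FPKM to 4.99 and 4.44 FPKM and NM_001194940 rose from 0.147 and 0.174 FPKM to 6.16 and 5.76 FPKM. In Gmfg, encoding glia maturation factor gamma, NM_022024 fell (difference -4.30 ± 0.43) and NM_001039192 rose (difference 1.68 ± 0.23). In Ppfibp1, encoding liprin-beta-1, NM_026221 fell from 41.4 and 40.4 FPKM to 23.0 and 20.8 FPKM and NM_001170433 rose from 2.74 and 2.56 FPKM to 5.76 and 6.09 FPKM, the latter without passing when the block was added.

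**Figure D5:**
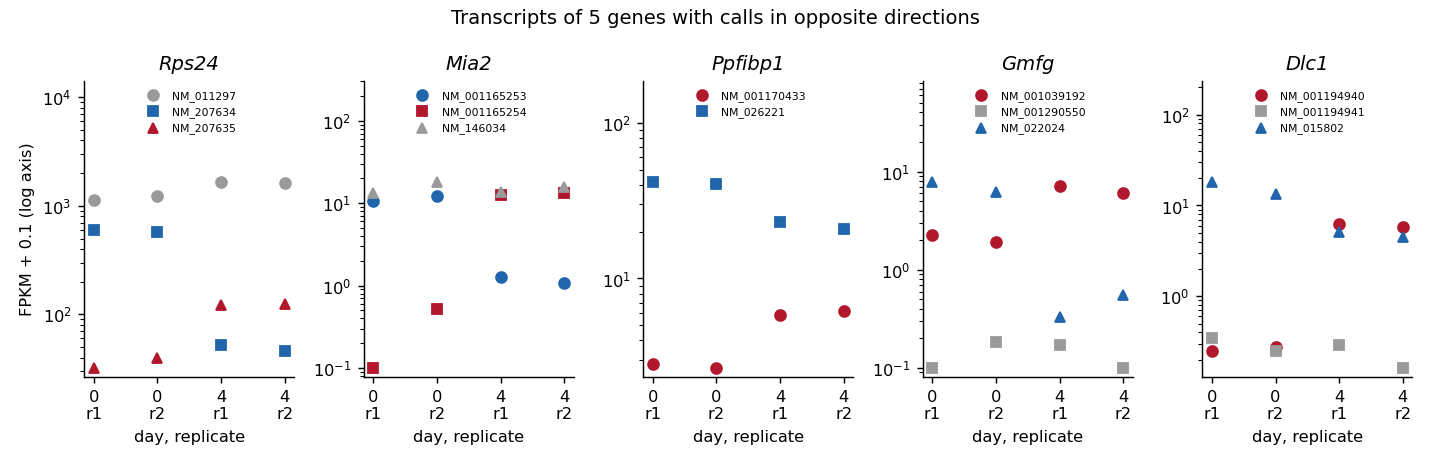
FPKM + 0.1 (log axis) of the tested transcripts of 5 genes in the 4 RNA samples (0 and 4 for the day, r1 and r2 for the replicate), each point the mean of 4 vials. Red transcripts passed as higher, blue as lower at day 4 and grey did not pass; in Rps24 NM_207634 drops to 52.3 and 46.2 FPKM while NM_207635 rises to 123 and 124 FPKM.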

How the data were processed

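Stranded total RNA was sequenced from 16 libraries, 8 per day. Per the labels and the study's methods, the authors aligned reads with bowtie2 2.1.0 to RefSeq (mm10) and spike-in transcripts and estimated FPKM with RSEM 1.2.18; the deposited FPKM are TMM-scaled, and no table used here gives the fragments behind a value. TopHat2 2.0.10 is also in the submitters' processing notes. Columns were matched to samples by title, and RNA replicate numbers came from the study's sample table.

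Of 33702 RefSeq transcripts, 58 of spike-in genes were left out. FPKM were summed per gene (99.2% of transcripts matched a symbol), and log2(FPKM + 0.1) was averaged over 4 vials. The 2 RNA samples of each day were compared with limma 3.58.1 (R 4.3.3, with a trend and no block). The test was also run on simulated data in which all samples had the spread of day 4. That simulation cannot show how the test behaves with the larger spread of day 0. The limma p-values rest on the spread between 2 RNA samples per day. At day 0 this spread also holds the divergence of the vials within replicate 2. The median standard deviation between the RNA samples of a day was 0.350 at day 0 and 0.118 at day 4, on the log2 scale over 11570 genes. Genes passed at a Benjamini-Hochberg adjusted p of at most 0.05 over 20459 genes. The GC correction subtracted, per library, medians in 20 classes of GC content, built on 13253 transcripts with GENCODE M21 sequences. Same-numbered RNA samples share 1 run of the procedure, and the differences between the replicates at day 0 and at day 4 correlated with r = 0.814 over 11570 genes, so the block is given where it changes a call.

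The members, the 31 lists and the tests were chosen with earlier results of these data known. Named are 5 markers, the 12 largest rises and falls with a mean of at least 1 FPKM and no overlap between the days, and from each list members that passed with the largest differences or did not pass with the highest means, unless stated. Not every gene under the rule is described, and some are not reported here. Settings tried are listed with the limits.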

Additional observations from a re-analysis of the deposited data

How the results depend on the processing

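Against 3056 genes higher and 2049 lower, leaving out the vials of mixes 3 and 4 of day 0 replicate 2 gave 5524 and 6865, the GC correction 5590 and 4755, the GC correction with the replicate block 6112 and 5475, only genes with a mean of at least 1 FPKM 1889 and 1251 (fewer genes were tested), and only the mix 4 vials 834 and 283. The replicate block, which pairs the days, gave 3778 and 3899. Leaving out 1 RNA sample gave from 0 to 3740 higher and from 0 to 5688 lower genes, 0 in limma when either replicate of day 4 was the one left out (4586 and 4402 genes then had an unadjusted p of at most 0.05, and the lone day 4 sample was taken to vary like day 0). The causes were not tested. Both pseudocounts, the log2 of the mean FPKM, median centring, no trend, a 2-fold minimum, the vial of mix 1 of day 4 replicate 1 left out and day 0 from the 2 vials kept both counts within 1.5 times. Median centring moved the median of all genes from -0.02 to 0.12. The 13 genes with opposite transcripts became 33 with the block, 431 without the 2 vials and from 0 to 208 with 1 RNA sample left out.

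Among genes whose levels are given, signs turned for none that had passed. Over all genes, 3055 of the 3056 higher and 2045 of the 2049 lower genes kept their sign with the GC correction. Cdh2 was at 0.0066 without the 2 vials, 0.006 without the vial of mix 1 of day 4 replicate 1, 0.0196 from the mix 4 vials, 0.1296 with median centring and 0.0062 with the GC correction, with or without the block, and ranged from -0.0343 to 0.0284 with 1 RNA sample left out. Nes was at 0.035 with median centring, 0.8248 with the GC correction (limma adjusted p = 0.170), the same with the block added, where it passed as higher (adjusted p = 0.00908), and 0.1088 with day 0 from the 2 vials, and ranged from -0.2442 to 0.0491 with 1 RNA sample left out. Hoxb1 was at -0.0905 without the 2 vials and ranged from -0.0944 to 0.1252. With day 0 from the 2 vials Gapdh was at 0.6097 and Rarg at 0.3337. The block took away the call of no gene whose levels are given. FPKM without counts do not show how many reads lie behind a low value, so differences of genes near the pseudocount of 0.1 depend on it.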
